A study of Mus musculus with 8 samples.

Results

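The 45 genes described here encode the proteins by which an islet cell takes up glucose, splits it to pyruvate, and passes the carbon into the citric acid cycle or out as lactate, citrate and itaconate. They were picked by name from these pathways, and all 45 were present among the 30406 gene identifiers that the 8 libraries share. Single islet cells were profiled by 10x Genomics 3′ RNA sequencing, which counts RNA molecules by unique molecular identifiers (UMIs).

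Islets came from male C57BL/6 mice (C57BL6/J in the study's methods) aged 12 to 16 weeks, with no genetic change in any group. The islets of 10 mice were pooled for each of 2 replicates, and each pool was divided over 4 conditions, so a library is a pool of animals and n = 2 for every group. Islets were held for 18 h in medium with 5.5 mM glucose. They received nothing (untreated), a cytokine pair of IFN-γ at 150 U/mL and IL-1β at 10 U/mL (cytokines), the same cytokines with 2 mM NMMA, or 2 mM NMMA alone. NMMA inhibits the nitric oxide synthases, so the third condition asks which cytokine responses depend on nitric oxide.

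Of 17426 barcodes, 10876 passed the filters on genes detected and mitochondrial RNA, and the libraries held 26549922 to 50731370 UMIs. The classes compared were 6352 β-cells, 638 α-cells, 347 macrophages, 283 endothelial cells and 278 δ-cells, each named from its marker genes. Each class had all of its own markers above 0 in every condition tested, but the α- and δ-cells also held Ppy and Pyy. Their summed levels were 41893 to 48279 and 86586 to 192959 CPM (counts per 1000000 UMIs) in the untreated libraries. The sum does not separate Ppy (pancreatic polypeptide) from Pyy (peptide YY), so the part of pancreatic polypeptide RNA in either class is not given by it. With cytokines alone 6 and 8 δ-cells were found, and those libraries were left out of the δ-cell tests. Treated and untreated cells lay mostly in different clusters, and several of these clusters held cells almost only of 1 replicate. Of β-cells, cluster 0 held 1555 untreated and 542 NMMA cells of replicate 1, against 0 and 3 of replicate 2, for which cluster 2 held 488 and 462. With cytokines alone, cluster 1 held 1026 cells of replicate 1, and with cytokines and NMMA cluster 7 held 471, while in replicate 2 cluster 3 held both, 415 and 358. Of barcodes in the α-cell clusters, number 12 held 148 and 69 of the untreated and NMMA libraries of replicate 1, number 13 held 113 and 148 of those of replicate 2, and number 10 held most of the cytokine conditions of both. The α- and δ-cell clusters were clustered once more, and this split the 2 cytokine conditions of the α-cells. Subcluster 6, led by Hspa1a and Hspa1b, held 49 and 57 barcodes with cytokines alone and 11 and 4 with cytokines and NMMA. Subcluster 1, led by Trf and Steap4, held 0 and 14, then 85 and 84. Leading clusters were 9 without and 18 with cytokines for δ-cells, 14 and 17 for macrophages, and 16 and 19 for endothelial cells.

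Glucose enters a mouse β-cell through the transporter GLUT2, encoded by Slc2a2, and its breakdown to pyruvate and oxidation in the citric acid cycle raise ATP, which triggers insulin release. β-cells are known for keeping a few genes of other tissues very low, among them Ldha (lactate dehydrogenase A), Slc16a1 (a lactate and pyruvate carrier) and Hk1 (hexokinase 1), so that pyruvate is oxidized or carboxylated rather than turned into lactate. Acod1 encodes the enzyme that makes itaconate from a citric acid cycle intermediate, a product best known from activated macrophages.

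In β-cells, 44 members had enough UMIs to be tested, and Hk1, at 0 to 1.31 CPM, did not. With cytokines 13 of the 44 were called higher and 9 lower at an adjusted p of 0.05 (edgeR's quasi-likelihood test on UMIs summed per library). In the same fit 23.7% of all 12782 genes tested were called higher and 22.4% lower, so the member counts lie near the background and say nothing particular to these genes. The median log2 change was 0.19 over the tested members and 0.00046 over all genes. What changed differed from step to step. Slc2a2, G6pc2, Pcx, Fh1, Acly, Pfkm and Idh1 fell by the most, and Acod1, Hk2, Slc16a1, Slc2a1, Dld, Pfkp and Got2 rose by the most. Levels are given as CPM on the scale of the fit, which is set within each cell class.

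Both glucose transporters changed, in opposite directions. Slc2a2 (ENSMUSG00000027690, GRCm38 chromosome 3, 28697903 to 28731359, plus strand) was at 131 and 87.2 CPM in the untreated libraries of replicates 1 and 2. It was at 9.61 and 9.33 CPM with cytokines, 9.95 and 12.2 CPM with cytokines and NMMA, and 68.7 and 55.6 CPM with NMMA alone. Both cytokine conditions lie far below the other libraries in both replicates, at 7.36% and 10.7% of untreated with cytokines. The log2 change with cytokines was -3.52 ± 0.22 (SE, adjusted p = 1.2e-05). With cytokines and NMMA it was -3.31 ± 0.22 (adjusted p = 1.5e-05), and the difference between those conditions, 0.22 ± 0.21, did not pass the test.

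The share of β-cells with a Slc2a2 UMI, each cell thinned to 9500 UMIs, was 60.1% and 43.9% in the untreated libraries. It was 6.76% and 8.32% with cytokines, 7.80% and 11.99% with cytokines and NMMA, and 39.6% and 37.1% with NMMA alone. Without thinning the untreated and cytokine shares were 77.6% and 63.8%, then 14.6% and 16.8%. Untreated endothelial cells, which should lack the gene, gave 4.55% (exact 95% interval 0.555 to 15.5%) and 0% at 4500 UMIs a cell, from median depths of 9707 and 12981 UMIs against 20440 and 25317 in untreated β-cells. The first cytokine share has an interval of 5.35 to 8.40%. The endothelial shares were taken at a lower depth and their interval is wide, so the shares of the 2 classes are not directly comparable. As summed levels, Slc2a2 was at 3.85 and 0 CPM in untreated endothelial cells, against 9.61 and 9.33 CPM in β-cells with cytokines. The part of background in the remaining β-cell signal was not tested.

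Slc2a1 (GLUT1, the transporter of most other tissues; GRCm38 chromosome 4, 119108711 to 119137983, plus strand) moved the other way. Its level was 17.5 and 30.8 CPM untreated, 142 and 99.4 CPM with cytokines, 100.4 and 79.8 CPM with cytokines and NMMA, and 29.7 and 31.1 CPM with NMMA. The cytokine libraries, with or without NMMA, do not overlap the others. The log2 change was 2.33 ± 0.28 with cytokines (adjusted p = 0.00045) and 1.91 ± 0.28 with cytokines and NMMA (adjusted p = 0.0021). At 9500 UMIs a cell, 12.5% and 20.3% of untreated β-cells had a Slc2a1 UMI, and 47.4% and 45.5% with cytokines.

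**Figure D1:**
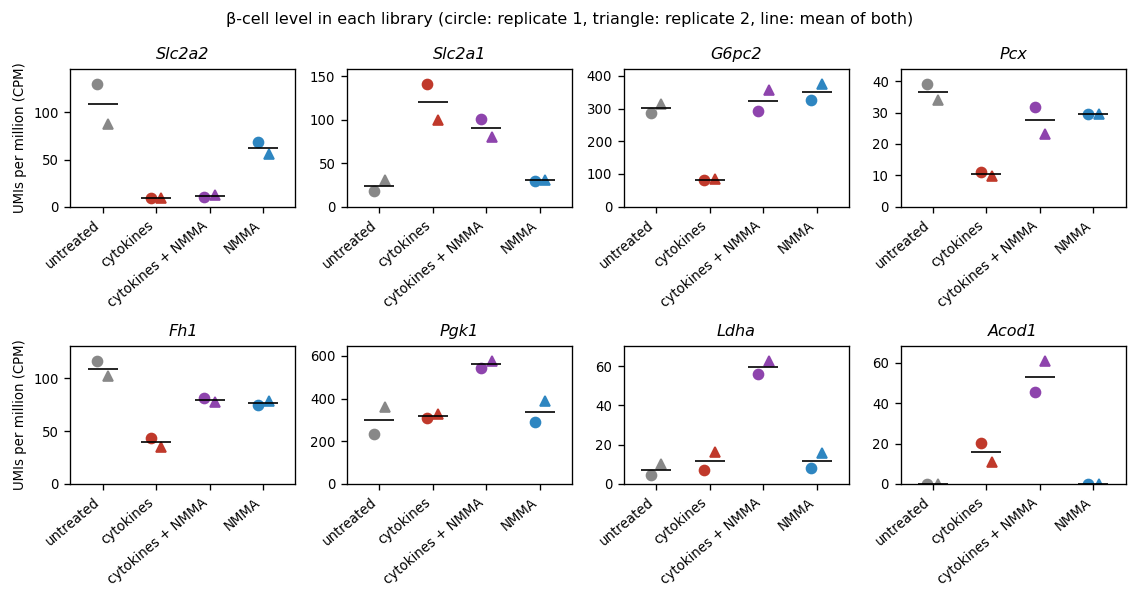
Level of named members in β-cells, in CPM on a linear axis that starts at 0, for the 4 conditions; circles are replicate 1, triangles replicate 2 and the line is the mean of both. Slc2a2 stays near 10 CPM in both cytokine conditions, while G6pc2, at 81.4 and 84.1 CPM with cytokines, is at 292 and 356 CPM when NMMA is present.

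At the phosphorylation step, G6pc2 fell with cytokines and was higher again with NMMA present. Its product, the islet glucose-6-phosphatase, turns glucose 6-phosphate back to glucose. G6pc2 (GRCm38 chromosome 2, 69211073 to 69227841, plus strand) was at 288 and 314 CPM untreated, 81.4 and 84.1 CPM with cytokines, 292 and 356 CPM with cytokines and NMMA, and 325 and 377 CPM with NMMA. Only the 2 libraries with cytokines alone are low. The log2 change was -1.86 ± 0.16 with cytokines (adjusted p = 3.8e-05). It was 1.97 ± 0.16 on adding NMMA to cytokines (adjusted p = 0.0011), and 0.11 ± 0.15 for cytokines with NMMA against untreated, which did not pass. Hk2, a hexokinase of muscle and of stimulated immune cells, gave 1 UMI in the untreated β-cells and 30 with cytokines. Its level was 0 and 0.0604 CPM untreated, 0.575 and 1.01 CPM with cytokines, and 1.65 and 1.96 CPM with cytokines and NMMA. The ratio of CPM was 38.4 with a 95% counting interval of 6.38 to 1567, and both comparisons with untreated were called (adjusted p = 0.0036 and 0.0017).

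Of the 6 members of upper glycolysis, 1 rose and 1 fell with cytokines. Both encode phosphofructokinase, which commits sugar phosphate to glycolysis, in its platelet (Pfkp) and muscle (Pfkm) isoforms. Pfkp was at 55.9 and 85.3 CPM untreated, 139 and 116 CPM with cytokines, 193 and 196 CPM with cytokines and NMMA, and 73.5 and 116 CPM with NMMA. Its log2 change was 0.85 ± 0.25 with cytokines and 1.46 ± 0.25 with cytokines and NMMA (adjusted p = 0.022 and 0.0038). Pfkm was at 11.04 and 10.8 CPM untreated, 5.55 and 5.10 CPM with cytokines, 5.96 and 6.93 CPM with cytokines and NMMA, and 11.1 and 10.3 CPM with NMMA. It fell by 1.03 ± 0.15 and 0.77 ± 0.15 on the log2 scale in the 2 cytokine conditions. Pfkl, which encodes the liver isoform of phosphofructokinase, had a log2 change of 0.22 with cytokines. Gpi1, Aldoa and Tpi1, which encode the other steps, had 0.17, 0.23 and 0.48, and none of these genes passed the test.

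In lower glycolysis 1 of 6 members, Gapdh, was called with cytokines. Gapdh encodes the glyceraldehyde phosphate dehydrogenase and served the study as the reference RNA in its quantitative PCR. It was at 702 and 885 CPM untreated, 1253 and 1157 CPM with cytokines, 1718 and 1385 CPM with cytokines and NMMA, and 756 and 924 CPM with NMMA alone. The untreated and NMMA libraries lie below all 4 with cytokines. The log2 change was 0.60 ± 0.18 with cytokines (adjusted p = 0.020) and 0.97 ± 0.18 with cytokines and NMMA (adjusted p = 0.0043). The call with cytokines alone was lost on scaling by total UMIs, where the adjusted p was 0.13. Pgk1, Pgam1, Eno1, Eno2 and Pkm, which encode the steps down to pyruvate, had log2 changes between -0.19 and 0.29 with cytokines and were not called. Gapdh, Pgam1 and Eno1 have near-identical copies elsewhere in the mouse genome, and how the counting treated reads shared with them is not given in the sources used here, so their levels are uncertain.

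Of the lactate genes, Slc16a1 was called higher with cytokines on few UMIs, 47 against 7 untreated, with levels of 0.0835 and 0.242 CPM untreated and 1.15 and 1.14 CPM with cytokines. The ratio was 8.60 (95% counting interval 3.86 to 22.5). Ldha and Ldhb, the lactate dehydrogenase subunits, had log2 changes of 0.73 ± 0.61 and -0.27 ± 0.19 and were not called.

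At the entry of pyruvate into the mitochondrion, 2 of 5 members rose and 2 fell. Pcx, the pyruvate carboxylase that β-cells use to refill the cycle (GRCm38 chromosome 19, 4510472 to 4621752, plus strand), was at 39.2 and 33.9 CPM untreated and 10.9 and 9.67 CPM with cytokines. With cytokines and NMMA it was at 31.7 and 23.2 CPM, and with NMMA at 29.7 CPM in both libraries. As for G6pc2, the libraries with cytokines alone are the lowest, at 27.8% and 28.5% of untreated. The log2 change was -1.83 ± 0.17 with cytokines (adjusted p = 7.1e-05) and 1.42 ± 0.17 on adding NMMA (adjusted p = 0.0024). Dld, the dihydrolipoamide dehydrogenase shared by the pyruvate and oxoglutarate dehydrogenase complexes, showed the mirror image. It was at 40.7 and 38.0 CPM untreated, 95.3 and 61.4 CPM with cytokines, 47.9 and 38.6 CPM with cytokines and NMMA, and 44.5 and 37.3 CPM with NMMA. Its log2 changes were 0.997 ± 0.209 with cytokines and -0.86 ± 0.21 on adding NMMA (adjusted p = 0.0046 and 0.023). The core subunits of the pyruvate dehydrogenase complex moved little, with Pdhb at 0.40 ± 0.13 and Dlat at -0.37 ± 0.12, both called, and Pdha1 at 0.21 ± 0.12, not called.

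In the citric acid cycle itself, 2 of 11 members rose and 2 fell. Fh1, the fumarase (GRCm38 chromosome 1, 175600374 to 175625635, minus strand), fell most. Its level was 117 and 102 CPM untreated, 43.6 and 35.4 CPM with cytokines, 81.9 and 77.7 CPM with cytokines and NMMA, and 75.1 and 78.6 CPM with NMMA. Both libraries with NMMA alone lie below both untreated ones, and the libraries with cytokines alone lie lowest. On the log2 scale the change was -1.47 ± 0.14 with cytokines (adjusted p = 8.8e-05), 1.01 ± 0.14 on adding NMMA (adjusted p = 0.0038) and -0.45 ± 0.14 for cytokines with NMMA against untreated (adjusted p = 0.045). Idh3b, a subunit of the NAD-linked isocitrate dehydrogenase, was at 30.6 and 25.8 CPM untreated, 50.5 and 43.7 CPM with cytokines, 31.4 and 26.9 CPM with cytokines and NMMA, and 32.4 and 27.0 CPM with NMMA. It rose by 0.74 ± 0.15 with cytokines and fell by 0.69 ± 0.15 on adding NMMA, on the log2 scale. Ogdh, the oxoglutarate dehydrogenase, was at 51.5 and 46.2 CPM untreated and 38.3 and 33.6 CPM with cytokines (-0.44 ± 0.13, adjusted p = 0.021). Cs, the citrate synthase, rose by 0.42 ± 0.11. The other 7 (Idh3a, Idh3g, Dlst, Suclg1, Suclg2, Sucla2 and Mdh2) had log2 changes from -0.11 to 0.36, none past the test.

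Among the 8 genes of NADPH supply, citrate export and amino acid exchange, 3 rose and 2 fell. Acly, the enzyme that splits exported citrate, was at 672 and 842 CPM untreated, 280 and 372 CPM with cytokines, 396 and 518 CPM with cytokines and NMMA, and 580 and 845 CPM with NMMA. The 4 cytokine libraries lie below the other 4, and the log2 change with cytokines was -1.22 ± 0.23 (adjusted p = 0.0031). Got2, the mitochondrial aspartate aminotransferase of the malate-aspartate shuttle, was at 49.8 and 52.2 CPM untreated, 92.1 and 90.2 CPM with cytokines, 84.1 and 88.7 CPM with cytokines and NMMA, and 50.6 and 58.0 CPM with NMMA. It rose by 0.84 ± 0.12 and 0.76 ± 0.12 on the log2 scale in the 2 cytokine conditions. Idh1, the cytosolic isocitrate dehydrogenase, was at 24.4 and 21.3 CPM untreated, 13.1 and 13.8 CPM with cytokines and 23.3 and 18.9 CPM with cytokines and NMMA (log2 changes -0.77 ± 0.15 and, on adding NMMA, 0.65 ± 0.15). Got1 and Me1, the cytosolic partner of Got2 and the malic enzyme, rose by 0.63 ± 0.13 and 0.73 ± 0.25. Idh2, Mdh1 and Glud1 had log2 changes of -0.10, 0.31 and 0.04, not called.

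Acod1 (GRCm38 chromosome 14, 103046977 to 103056573, plus strand) was all but absent from β-cells without cytokines, with 1 UMI in the untreated libraries together and none with NMMA. It was at 20.1 and 11.01 CPM with cytokines and 45.4 and 61.1 CPM with cytokines and NMMA. The ratio to untreated was 883 with cytokines (95% counting interval 158 to 34941) and 2707 with cytokines and NMMA (485 to 106977), and the step from cytokines to cytokines with NMMA was 1.76 ± 0.30 on the log2 scale (adjusted p = 0.011). Macrophage markers in the β-cell sums moved in the same direction. The 7 of them summed to 43.3 to 69.1 CPM untreated, 75.3 to 138 CPM with cytokines and 86.6 to 184 CPM with cytokines and NMMA, with 2, 0 and 2 of the 7 at 0 in the same order. In the macrophage class the same markers summed to 11871 to 15633 CPM over these conditions, with none at 0, and Acod1 reached 280 to 460 CPM with cytokines. The part of macrophage RNA in the β-cell result was not tested.

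Of the 22 calls with cytokines, 14 held in all 8 fits that left out 1 library. The other 8 (Slc16a1, Gapdh, Pfkp, Ogdh, Cs, Pdhb, Dlat and Me1) were all lost without untreated replicate 1, without which 14 members were called in all, and all but Slc16a1 and Ogdh also without cytokine replicate 1. Scaling by total UMIs, which moved the median of all genes to -0.22, left 8 members called higher and 9 lower in place of 13 and 9. With the replicates paired as a block, the 22 kept their calls and Aldoa, Tpi1, Eno2, Dlst, Mdh1 and Mdh2 were called as well. That gave 28 members, 19 higher and 9 lower. The share of all genes called in either direction also rose, from 46.1% without pairing to 63.0%, so the added calls are not particular to the members.

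**Figure D2:**
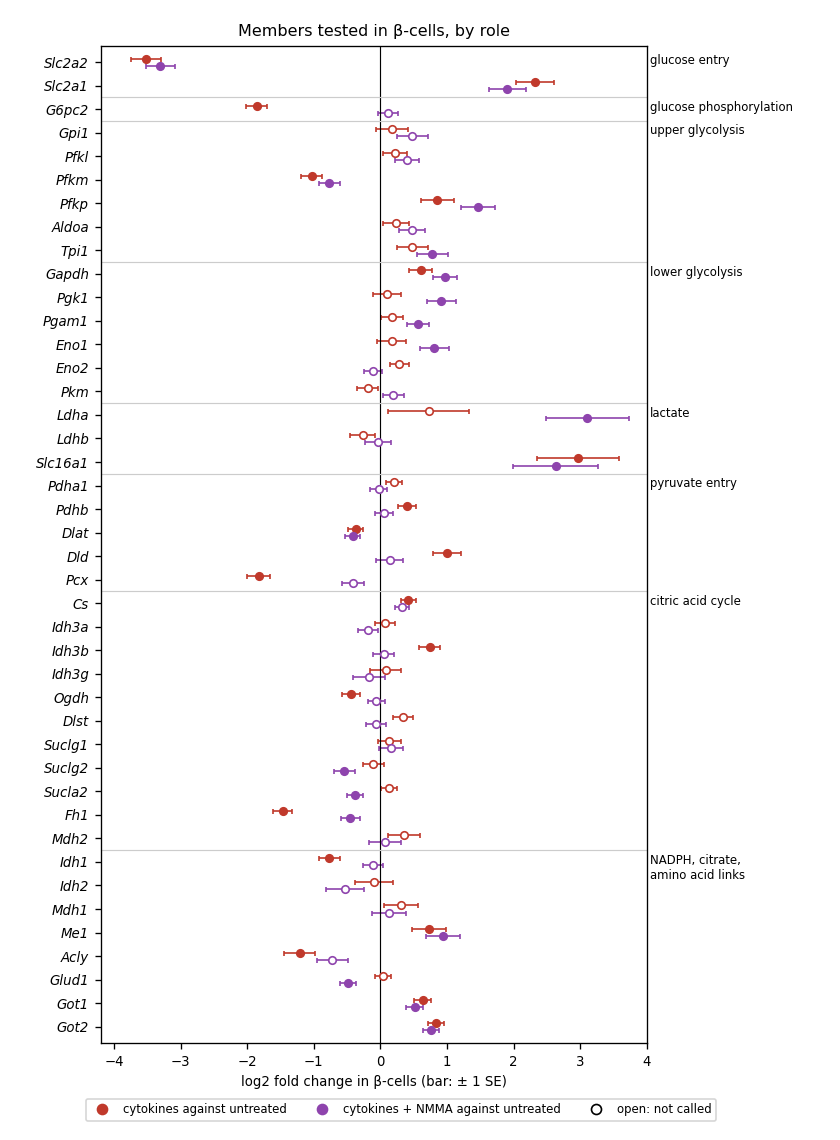
Log2 fold change in β-cells (horizontal axis, bars ± 1 SE) for the tested members by role, with cytokines and with cytokines and NMMA, each against untreated; filled points were called and open points were not, and Hk2 and Acod1 are left out for their size. G6pc2, Pcx and Idh1 lie lower with cytokines alone than with NMMA present, where Pcx is at -0.41, while the glycolysis genes other than Eno2 lie higher with NMMA than without it.

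Adding NMMA to the cytokines changed 10 of the 44 members in β-cells against cytokines alone. 6 were called higher, against 10.3% of all genes, and 4 lower, against 8.94%. G6pc2, Acod1, Pcx, Fh1, Pgk1 and Idh1 were higher with NMMA. Pgk1, the phosphoglycerate kinase, was at 310 and 326 CPM with cytokines and 544 and 577 CPM with cytokines and NMMA, against 236 and 358 CPM untreated (0.82 ± 0.21, adjusted p = 0.028). The 4 that were lower were Dld, Idh3b, Glud1 and Sucla2, the last 2 by 0.53 ± 0.12 and 0.51 ± 0.12 on the log2 scale. Glud1, the glutamate dehydrogenase, was at 52.0 and 52.6 CPM with cytokines and 35.3 and 37.3 CPM with NMMA added. Sucla2, a succinyl-CoA ligase subunit, was at 34.8 and 32.4 CPM and then 23.6 and 23.5 CPM.

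The calls of G6pc2, Fh1 and Pcx held in all 8 fits that left out 1 library, and Acod1 lost its call without replicate 2 of cytokines with NMMA. The other 6 lost it in at least 1 fit without a library of the conditions compared, and 4, 5 and 4 members were called in all without cytokine replicate 1 or either library of cytokines with NMMA. With the replicates paired, 25 members were called, 14 higher and 11 lower, against 40.9% of all genes in either direction, and Acod1 was not (adjusted p = 0.061). Scaling by total UMIs gave 10 higher and 2 lower.

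Cytokines with NMMA, set against untreated, gave 14 members called higher and 7 lower, where 12.9% and 9.78% of all genes were called. Of the 6 lower glycolysis genes 4 rose (Gapdh, Pgk1, Pgam1 and Eno1, by 0.97, 0.92, 0.56 and 0.81 on the log2 scale). In upper glycolysis Pfkp and Tpi1 rose and Pfkm fell. Ldha, at 4.28 and 9.91 CPM untreated and 7.20 and 15.98 CPM with cytokines, was at 56.2 and 62.7 CPM with cytokines and NMMA, and at 7.89 and 15.6 CPM with NMMA alone. Both libraries with cytokines and NMMA lie above the other 6. Its log2 change was 3.11 ± 0.63 against untreated (adjusted p = 0.023) and 2.38 ± 0.60 against cytokines (adjusted p = 0.052, not called, and 0.0021 with the replicates paired). No citric acid cycle gene was called higher without pairing, and Fh1, Suclg2 and Sucla2 fell by 0.45, 0.54 and 0.39, beside Dlat and Glud1 by 0.42 and 0.49. The calls of Slc2a2, Slc2a1, Hk2, Got2, Acod1 and Pfkp held in all 8 fits that left out 1 library. Without untreated replicate 1 the count fell from 21 to 6, and without replicate 1 or 2 of cytokines with NMMA to 10 and 11. With the replicates paired, 28 were called, 18 higher and 10 lower, against 40.9% of all genes in either direction. All 21 were among them, with Gpi1, Aldoa, Pfkl and Cs higher and Pcx, Acly and Idh2 lower (Pcx at -0.41, adjusted p = 0.0060).

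Promoters of 3 of these higher genes are shown because they carry the letters ACGTG, the core shared by hypoxia-response elements and by the E-box CACGTG, and because they come from the entry, middle and end of glycolysis. They were chosen after the values were seen. Each window is 300 bases of RefSeq sequence on GRCm38.p6, from 250 before to 50 after the listed start, 5′ to 3′ on the plus strand. Capitals mark ACGTG or its reverse complement CACGT, found on either strand, and where both overlap they form CACGTG. Slc2a1 lies at chr4:119108495-119108794 with 1 match, Pgk1 at chrX:106186850-106187149 with 2, and Ldha at chr7:46845554-46845853, the first of 2 listed starts, with 5.
Slc2a1: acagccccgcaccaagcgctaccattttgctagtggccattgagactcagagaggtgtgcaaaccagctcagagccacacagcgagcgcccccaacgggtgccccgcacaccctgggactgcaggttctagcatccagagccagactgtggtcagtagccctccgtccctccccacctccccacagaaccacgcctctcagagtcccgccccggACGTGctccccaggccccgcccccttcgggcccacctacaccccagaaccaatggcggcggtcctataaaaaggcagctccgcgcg
Pgk1: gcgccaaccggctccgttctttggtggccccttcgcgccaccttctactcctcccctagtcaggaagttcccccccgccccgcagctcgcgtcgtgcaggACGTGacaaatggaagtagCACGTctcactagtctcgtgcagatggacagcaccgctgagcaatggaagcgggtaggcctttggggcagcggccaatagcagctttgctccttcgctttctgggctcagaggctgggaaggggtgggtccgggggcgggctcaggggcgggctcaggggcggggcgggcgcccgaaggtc
Ldha: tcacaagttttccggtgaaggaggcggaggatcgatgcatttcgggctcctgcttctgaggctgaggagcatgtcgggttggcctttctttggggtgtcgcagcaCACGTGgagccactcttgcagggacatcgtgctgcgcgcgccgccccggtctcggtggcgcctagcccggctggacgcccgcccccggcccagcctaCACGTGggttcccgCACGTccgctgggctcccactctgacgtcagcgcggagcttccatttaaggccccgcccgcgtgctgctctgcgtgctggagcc

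Such a match was found for 20 of the 44 members with a listed window (45.5%), and for 5886 of 27025 genes (21.8%). It was found for 9 of the 14 members called higher with cytokines and NMMA (64.3%), 1 of the 7 called lower (14.3%) and 10 of the other 23 (43.5%). A match is a description of the letters in these windows. Genes with several starts were counted if any window held one.

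NMMA alone gave no call among the 44 members or among all genes tested in β-cells (0% of 12782), by edgeR. At an unadjusted p under 0.05 there were 3 members, Slc2a2, Fh1 and Glud1, all lower, and 924 genes in all, and DESeq2 called 0 members. The log2 change was -0.81 ± 0.20 for Slc2a2 and -0.51 ± 0.14 for Fh1. With the replicates paired these 2 were called, among 3.62% of all genes.

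A second list held 62 further genes of the same pathways (control of glycolysis, the pentose phosphate path, pyruvate control, the rest of the cycle and carriers), of which 57 were tested in β-cells. With cytokines 9 of the 57 rose, against 23.7% of all genes, and 15 fell, against 22.4%, with a median log2 change of -0.19. Those that rose most were Pfkfb3, the inducible enzyme that makes the activator of phosphofructokinase, by 2.29 ± 0.19; the dicarboxylate carrier Slc25a10 by 1.41; the hypoxia factor Hif1a by 1.17; the thioredoxin inhibitor Txnip by 0.93; and the pentose phosphate enzyme Pgd by 0.86. Pfkfb3 was at 7.34 and 11 CPM untreated, 43.7 and 45.2 CPM with cytokines and 112 and 98.1 CPM with cytokines and NMMA. Hif1a was at 30.3 and 33.7 CPM untreated, 68.7 and 75.9 CPM with cytokines and 78.3 and 84.2 CPM with cytokines and NMMA. Those that fell most were the glycerol phosphate dehydrogenase Gpd2 (-1.73 ± 0.19), the pyruvate dehydrogenase kinase Pdk2 (-1.62), the glucose-responsive transcription factor Mlxipl (-1.56), the malic enzyme Me3 (-1.43) and the pyruvate dehydrogenase phosphatase Pdp2 (-1.40). Mlxipl was at 131 and 81.2 CPM untreated, 42.4 and 29.2 CPM with cytokines, and 28.1 and 19.98 CPM with cytokines and NMMA.

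In α-cells 43 members were tested. With cytokines 5 rose, against 13.6% of 9734 genes, and 5 fell, against 9.4%. Slc2a1 rose most among well-counted genes, from 4.33 and 6.55 CPM untreated to 84.9 and 36.0 CPM with cytokines and 58.8 and 41.0 CPM with cytokines and NMMA (3.34 ± 0.45, adjusted p = 0.00013). Acod1 and Hk2 had no UMI in untreated α-cells. Acod1 was at 19.2 and 17.1 CPM with cytokines, at least 19.2-fold higher than the level of 3 UMIs over the untreated libraries, and Hk2 at 6.40 and 4.29 CPM, at least 5.39-fold. Eno2, the neuronal enolase, rose from 7.21 and 8.18 CPM to 19.2 and 18.9 CPM (1.28 ± 0.39), and Dld by 1.04 ± 0.28. Ogdh fell most, from 63.5 and 60.6 CPM to 27.2 and 27.4 CPM (-1.18 ± 0.26, adjusted p = 0.0033), beside Fh1, Acly, Dlat and Suclg1 by 0.98, 0.92, 0.86 and 0.77.

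β-cell markers, insulin among them, rose in the α-cell sums from 7675 to 9414 CPM untreated to 55568 to 55593 CPM with cytokines, with none of 7 at 0 in either, and their part in these results was not tested. Insulin-led barcodes of the α- and δ-cell clusters, which were not used, numbered 71 and 64 in the untreated libraries and 13 and 123 with NMMA, but 0 or 1 in each library with cytokines. Pairing the replicates gave 16 calls (30.8% of all genes), scaling by total UMIs, where the median of all genes was -0.50, gave 3 higher and 12 lower, and 5 members were called without untreated replicate 1, untreated replicate 2 or cytokine replicate 1.

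Adding NMMA to cytokines raised 8 α-cell members and lowered none (5.19% and 5.86% of all genes). The α-cells of these 2 conditions lay mostly in different subclusters, as given above, and the part of this in the calls was not tested. Pgk1 went from 139 and 160 CPM with cytokines to 441 and 543 CPM (1.71 ± 0.22, adjusted p = 0.00023), and Acod1 to 102 and 65.5 CPM (2.22 ± 0.32, adjusted p = 0.00069). Both held in every fit without 1 library. Hk1, measured in α-cells at 14.4 and 20.2 CPM untreated, went from 14.4 and 17.1 CPM to 35.0 and 34.6 CPM, and Pfkp from 75.2 and 88.3 CPM to 166 and 179 CPM. G6pc2 went from 3.20 and 7.72 CPM to 15.5 and 39.4 CPM (2.17 ± 0.60, adjusted p = 0.039). At the β-cell ratio of G6pc2 to Ins2, the insulin RNA in these sums would bring 9.94 and 9.87 CPM, and then 13.7 and 48.4 CPM, so the level with NMMA lies near that of the insulin RNA present. The other called members were Pgam1, Suclg1 and Pkm (0.86, 0.84 and 0.67). With pairing 18 were called, 14 higher and 4 lower (19.8% of all genes), and scaling by total UMIs gave 18 higher and 0 lower.

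Against untreated, cytokines with NMMA raised 9 α-cell members and lowered none (6.05% and 2.25% of all genes). They were Acod1 (at least 89.5-fold), Hk2 (9.43 and 12.8 CPM, at least 11.95-fold), Slc2a1, Pfkp, Pgk1, Gapdh, Hk1, Eno1 and Pgam1, the last 7 by 3.14, 1.35, 1.15, 1.08, 0.98, 0.95 and 0.90. Pairing gave 16 (13.8% of all genes). NMMA alone called 0 of 43 by edgeR and by DESeq2 (0% of all genes), with 1 member at an unadjusted p under 0.05.

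In δ-cells 38 members were tested, and cytokines with NMMA raised 10 and lowered 1 against untreated (6.44% and 3.59% of 7713 genes). Markers of α-cells in the δ-cell sums moved from 470 to 1840 CPM untreated to 5386 to 13510 CPM with cytokines and NMMA, with 1 and 0 of 6 at 0, and the 4 δ-cell markers from 84677 to 96640 CPM to 36453 to 41407 CPM, none at 0; their part in these results was not tested. Pfkp went from 45.7 and 51.3 CPM to 154 and 200 CPM (1.88 ± 0.25, adjusted p = 2.4e-05), Slc2a1 from 14.1 and 16.03 CPM to 56.9 and 45.9 CPM (1.81 ± 0.39), and Ldha from 109 and 180 CPM to 343 and 519 CPM (1.62 ± 0.29, adjusted p = 0.0011). Pgk1, Gapdh, Eno1, Tpi1 and Pgam1 rose by 1.21, 1.18, 1.08, 1.01 and 0.71. Acod1 and Hk2, with no UMI in untreated δ-cells, were at 97.5 and 99.1 CPM and at 59.1 and 63.6 CPM, at least 38.1-fold and 23.7-fold above the level of 3 UMIs. Acly fell by 0.70 ± 0.21, a call lost in each of the 6 fits that left out 1 library. Pgam1 kept its call in 1 of the 6, and Pgk1, Tpi1 and Slc2a1 lost theirs without untreated replicate 1, where 6 members were called in all. DESeq2 did not call Slc2a1, Pgam1 or Acly (adjusted p = 0.12, 0.14 and 0.15), and neither did the fit after clustering with the members among the variable genes (0.10, 0.073 and 0.11). The δ-cell libraries with cytokines alone, not tested, had 51.5 and 82.3 CPM of Acod1 and 113 and 57.6 CPM of Hk2, from 6 and 8 cells. NMMA alone called 0 members by edgeR and DESeq2 (0% of all genes; 2 at an unadjusted p under 0.05), and 1 with pairing, Ldha.

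In macrophages 38 members were tested and 2 rose with cytokines, against 3.42% of 5728 genes, while none fell, against 0.821%. Acod1 went from 13.8 and 2.75 CPM untreated to 460 and 300.1 CPM with cytokines, 438 and 280 CPM with cytokines and NMMA, and 4.71 and 7.73 CPM with NMMA. The fitted log2 change was 5.76 ± 0.51 (adjusted p = 2.0e-05), and the ratio of CPM was 60.3 (95% counting interval 28.9 to 151). Hk2, present before treatment at 77.5 and 43.9 CPM, was at 121 and 173 CPM (1.32 ± 0.35, adjusted p = 0.046). The glycolysis genes did not pass, with Gapdh at 2737 and 3236 CPM untreated and 3147 and 2351 CPM with cytokines. DESeq2 did not call Hk2, which also lost its call without untreated replicate 2, cytokine replicate 2 or either library of cytokines with NMMA, and pairing gave 5 calls (7.94% of all genes).

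With cytokines and NMMA, 3 macrophage members were called higher and 1 lower (4.8% and 1.2% of all genes). Beside Acod1 and Hk2 these were Pfkp, from 66.4 and 31.6 CPM to 306 and 184 CPM (2.39 ± 0.36, adjusted p = 0.0007), and Idh1, from 58.1 and 70.0 CPM to 28.1 and 15.5 CPM (-1.62 ± 0.38, adjusted p = 0.018). Pairing gave 8 calls (10.9% of all genes). Against cytokines alone NMMA called 0 members by edgeR and DESeq2 (0.0349% of all genes), with 7 at an unadjusted p under 0.05, all higher; pairing called Tpi1 and Pfkp. NMMA alone called 0 by both tools (0%), with 0 at an unadjusted p under 0.05. β-cell markers in the macrophage sums ran from 18340 to 43029 CPM untreated, 2417 to 7131 CPM with cytokines and 52990 to 87892 CPM with NMMA. Acly, not called, moved with them, at 49.8 and 147 CPM, then 33.5 and 34.5 CPM, and 122 and 407 CPM, and the part of β-cell RNA was not tested.

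In endothelial cells 38 members were tested, and 5 rose with cytokines and 1 fell (4.58% and 1.75% of 7505 genes), from 15 and 23 cells. Hk2 went from 0 and 4.22 CPM untreated to 84.3 and 115 CPM (adjusted p = 1.3e-05), a ratio of 42.4 with a 95% counting interval of 13.8 to 212. Hk1 went from 216 and 242 CPM to 595 and 453 CPM (1.19 ± 0.23), Pgk1 from 707 and 838 CPM to 2014 and 1371 CPM (1.13 ± 0.24), and Tpi1 from 424 and 740 CPM to 1374 and 989 CPM (1.01 ± 0.27). Pkm, the pyruvate kinase, rose by 0.88 ± 0.23. Idh2, the mitochondrial NADP-linked isocitrate dehydrogenase, went from 71.3 and 26.7 CPM to 0 and 8.60 CPM, from 56 UMIs to 3 (adjusted p = 0.022; a ratio of 0.12 with a 95% counting interval of 0.0240 to 0.368). Acod1 had 4 UMIs with cytokines and 17 with cytokines and NMMA, none untreated, and was not called in either (adjusted p = 0.36 and 0.054). The 7 macrophage markers summed to 1.41 to 7.71 CPM in the untreated endothelial sums, 2.87 to 4.96 CPM with cytokines and 9.06 to 896 CPM with cytokines and NMMA, with 4, 6 and 0 of them at 0, and their part was not tested. Leaving out untreated replicate 1 left 1 call, Hk2, and leaving out cytokine replicate 1 left 2, while pairing gave 12 (10.4% of all genes).

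With cytokines and NMMA, 2 endothelial members were called higher, Hk2 at a ratio of 25.1 (counting interval 7.98 to 127) and Hk1 by 0.85 on the log2 scale, and 1 lower, Idh2, at 5.12 and 9.06 CPM, against 5.02% and 1.61% of all genes, and pairing gave 9 (10.1% of all genes). Against cytokines alone NMMA called 0 members by edgeR and DESeq2 (0% of all genes; 0 at an unadjusted p under 0.05). NMMA alone called 0 by both (0%; 1 at an unadjusted p under 0.05, lower).

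**Figure D3:**
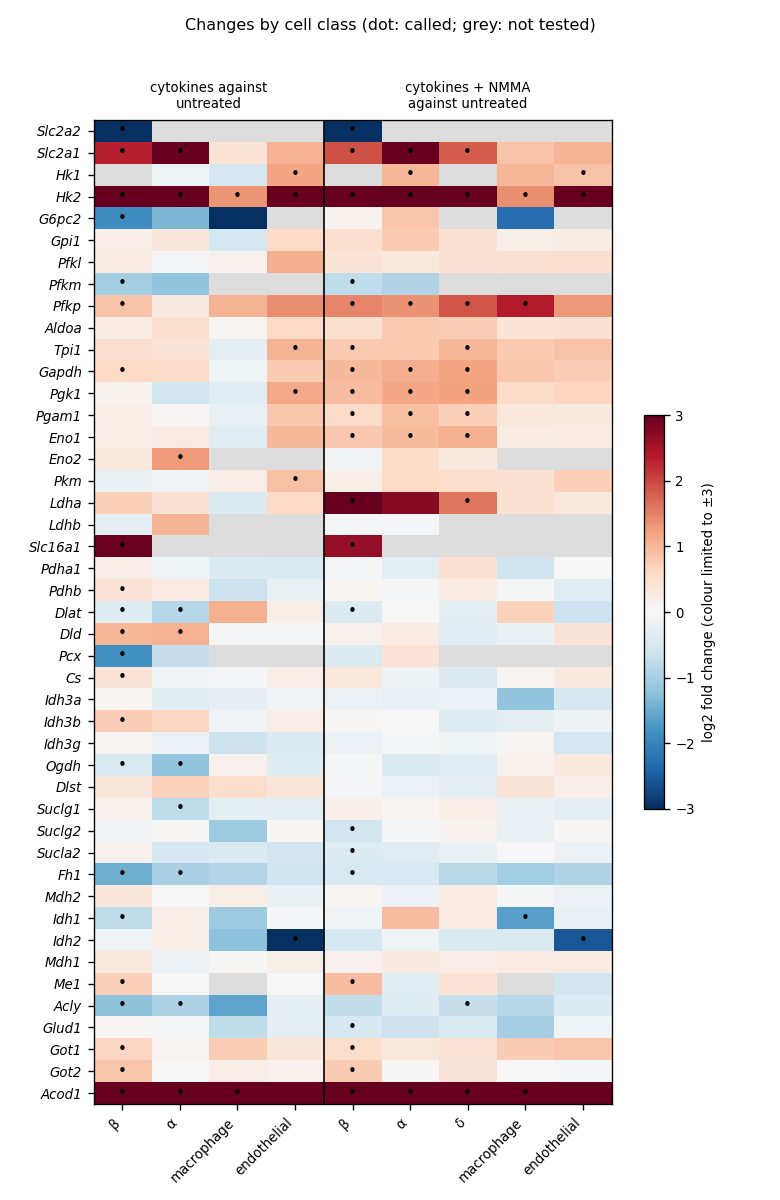
Log2 fold change of every member (rows) against untreated in each class (columns) with cytokines, left, and with cytokines and NMMA, right, with colour limited to 3 in each direction; a dot marks a call and grey a gene that was not tested, and the δ-cells have no column for cytokines alone. Slc2a1, Hk2, Pfkp, Acod1, Pgk1, Gapdh, Eno1 and Pgam1 carry a dot in all 3 endocrine classes with cytokines and NMMA. Of these, Hk2, Pfkp and Acod1 carry it in macrophages as well, and Hk2 in endothelial cells. Colours of genes with few or no untreated UMIs, such as Hk2 and Acod1 in the endocrine classes, depend on the prior count of the fit.

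Untreated classes were then compared with untreated β-cells, with the library as a block, so that each class is set beside the β-cells of its own library. The 7 β-cell markers, insulin above all, took 416652 to 464200 CPM of the untreated β-cell sums, and the counts on scaling by total UMIs are given for each class. In α-cells 3 members were higher and 19 lower than in β-cells, where 13.6% and 16.7% of all 12731 genes were called. Slc2a2 (-5.86 ± 0.32), G6pc2 (-4.74 ± 0.28), Pcx (-2.92 ± 0.27), Slc2a1 (-2.61 ± 0.28) and Acly (-1.79 ± 0.13) were the lowest. Hk1 (6.01 ± 0.52), Ldha (1.94 ± 0.35) and Glud1 (0.84 ± 0.14) were higher. Scaling by total UMIs, where the median of all genes was 0.52, gave 17 higher and 9 lower, and these 8 genes kept their direction and their calls. Ldha lost its call in edgeR's test after clustering with the members among the variable genes (adjusted p = 0.10).

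In δ-cells 1 member was higher, Ldha (3.70 ± 0.19), and 19 lower (9.09% and 11.8% of 12780 genes). G6pc2 (-6.32 ± 0.29), Slc2a2 (-6.26 ± 0.39), Pcx (-3.39 ± 0.40), Pgk1, Pfkp and Acly were among those lower under both scalings. The other 8 glycolysis genes called lower, Gapdh at -0.75 ± 0.15 among them, lost the call with total UMIs, and Tpi1, Gpi1 and Aldoa changed sign, where the median of all genes was 0.60 and the split 9 to 7.

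In macrophages 17 members were higher and 14 lower (21.3% and 23.3% of 12983 genes), with the median of all genes at -0.20. Hk1 (7.43 ± 0.66), Ldha (7.38 ± 0.77) and Slc16a1 (5.76 ± 1.08) stood highest beside Hk2 and Acod1, which had 60 and 7 UMIs in untreated macrophages and 1 each in the far deeper β-cell sums. Gapdh, Pkm, Tpi1, Eno1 and Pgam1 were each higher by 1.37 to 1.55. Pfkm, called lower, had no UMI in the untreated macrophages, and Me1, Pcx, G6pc2, Slc2a2 and Acly were lower by 4.55, 4.06, 3.79, 3.71 and 3.36, in sums that held the insulin RNA given above. Total UMIs gave 18 higher and 12 lower.

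In endothelial cells 7 members were higher and 14 lower (22.2% and 32.6% of 13268 genes), with the median of all genes at -0.29. Hk1 (9.19 ± 0.31), Ldha (6.74 ± 0.22), Slc16a1 (4.51 ± 1.02) and Slc2a1 (2.90 ± 0.19) stood highest and Slc2a2 (-7.05 ± 0.44), G6pc2 (-7.00 ± 0.33), Pcx (-5.50 ± 0.53) and Acly (-3.75 ± 0.20) lowest. Total UMIs, where the median was 0.73, gave 26 higher and 8 lower, and those 8 kept direction and call. Hk2 was called higher from 3 UMIs in the untreated endothelial cells, lost the call without untreated replicate 2, and changed sign in at least 1 alternative.

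**Figure D4:**
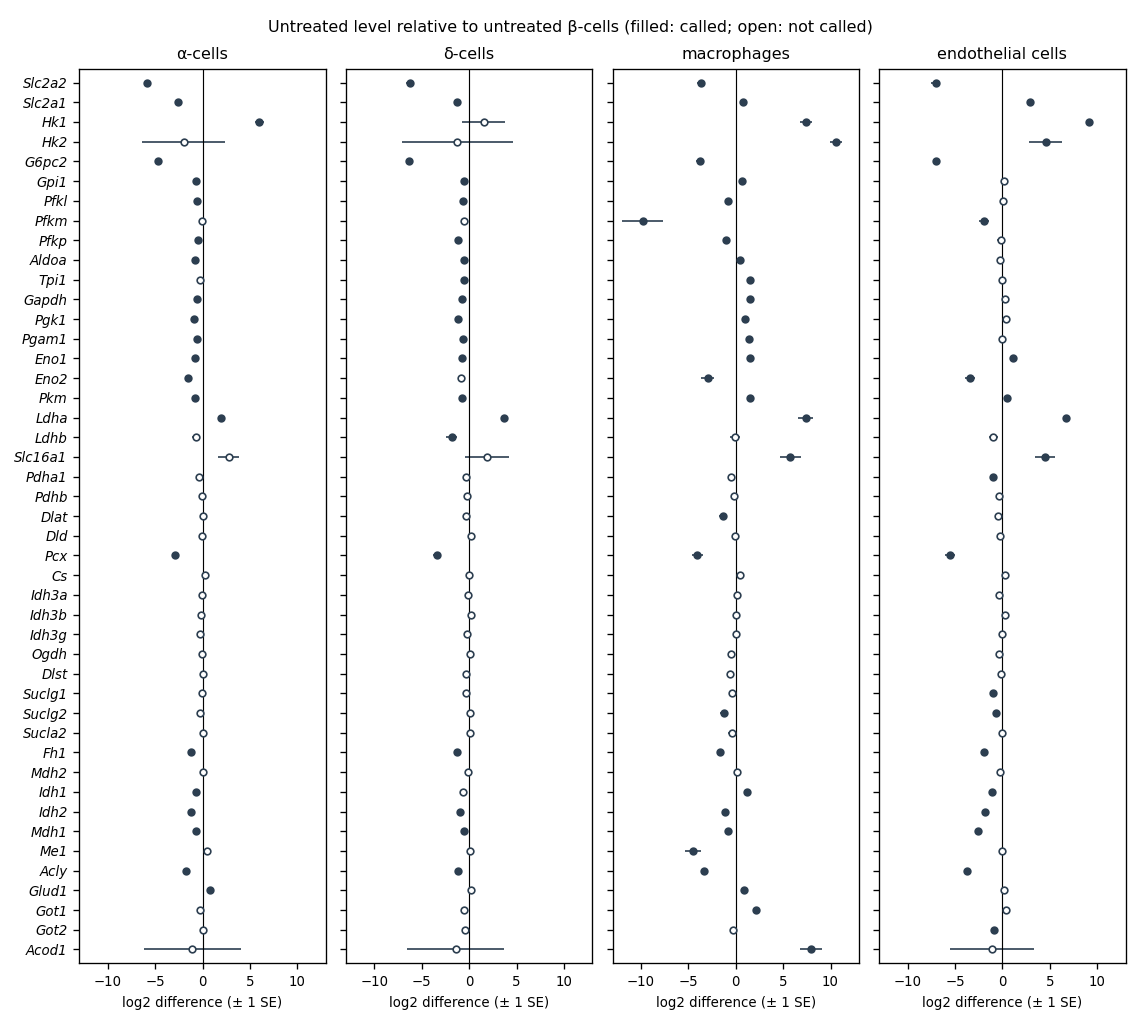
Log2 difference of each member between an untreated class and untreated β-cells (horizontal axis, bars ± 1 SE), 1 panel a class; filled points were called. Slc2a2, G6pc2 and Pcx lie to the left in all 4 panels and Ldha to the right in all 4; points of genes at or near 0 in a class, such as Pfkm in macrophages, depend on the prior count of the fit.

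The last comparison asked whether the cytokine change itself differed from that in β-cells, in a fit of both classes with the library as a block. In α-cells 2 members differed, against 4.51% of all genes. Suclg1 and Got2 changed less or in the other direction, by -0.85 ± 0.23 and -0.81 ± 0.22 (adjusted p = 0.022 and 0.018). Got2 was at 65.6 and 82.4 CPM in untreated α-cells and 64.0 and 80.6 CPM with cytokines, where β-cells rose, and Suclg1 at 144 and 136 CPM and then 60.8 and 99.5 CPM. In macrophages 5 differed (5.84% of all genes), all lower, beside a median of all genes at -0.35: Acod1 (-3.71 ± 1.04), Hk2 (-3.47 ± 0.95), Slc2a1 (-1.95 ± 0.39), Tpi1 (-0.83 ± 0.27) and Gapdh (-0.77 ± 0.25). The first 2 rest on 1 UMI each in untreated β-cells, so their fitted sizes depend on the prior count of the fit. Macrophage Slc2a1 was at 83.0 and 34.3 CPM untreated and 93.8 and 50.5 CPM with cytokines.

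In endothelial cells 7 differed (6.32% of all genes). Pkm, Pgk1, Acly, Pfkl and Eno1 were more positive than in β-cells, by 1.19 ± 0.23, 1.13 ± 0.24, 1.05 ± 0.32, 0.99 ± 0.26 and 0.89 ± 0.25. Idh2 (-2.78 ± 0.67, resting on the 3 UMIs above) and Slc2a1 (-1.22 ± 0.26) were more negative, the latter at 335 and 384 CPM untreated and 1017 and 485 CPM with cytokines. DESeq2 called 0 of these differences in α-cells, 0 in macrophages and 3 in endothelial cells (Pkm, Slc2a1 and Pgk1). Each lost its call without at least 1 library. Both α-cell calls and 6 of the 7 endothelial ones were lost without cytokine replicate 1, and all 5 macrophage calls without untreated replicate 1. The counts became 1 and 0 in α-cells without untreated replicate 1 or 2 and 4 without either NMMA library. They became 1, 3 and 2 in macrophages without untreated replicate 1, replicate 1 of cytokines with NMMA or cytokine replicate 2, and 2, 1 and 3 in endothelial cells without untreated replicate 1, cytokine replicate 1 or untreated replicate 2. δ-cells could not be fitted.

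Acod1 was seen in a minority of endocrine cells. At 9500 UMIs a cell, 9.10% and 7.48% of β-cells had an Acod1 UMI with cytokines and 15.3% and 15.8% with cytokines and NMMA, against 0 of 1597 and 0 of 517 untreated cells, which allows up to 0.188% and 0.580%. The exact 95% intervals with cytokines, 7.47 to 10.9% and 5.30 to 10.2%, lie below that of the first replicate with NMMA, 12.6 to 18.3%. At 8500 UMIs, 6.98% and 3.45% of α-cells had one with cytokines and 25.6% and 23.4% with cytokines and NMMA. At 4000 UMIs 20.4% and 21.2% of δ-cells had one with cytokines and NMMA. At 1500 UMIs 35.7% and 12.5% of macrophages had one with cytokines and 34.6% and 40% with cytokines and NMMA, and without thinning 61.8% and 46.2%, then 48.3% and 76.1%. The depths differ between classes, so these Acod1 shares were compared only within a class. Endothelial cells, at 4500 UMIs, gave 13.3% and 0% with cytokines from 15 and 23 cells. No test was run on these shares, and the intervals cover counting error only. With 2 pools of mice per condition, the p-values above set each change against the spread between these libraries. In the fits without pairing that spread includes differences between the replicates, which differ in islet pool and in Cell Ranger version.

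**Figure D5:**
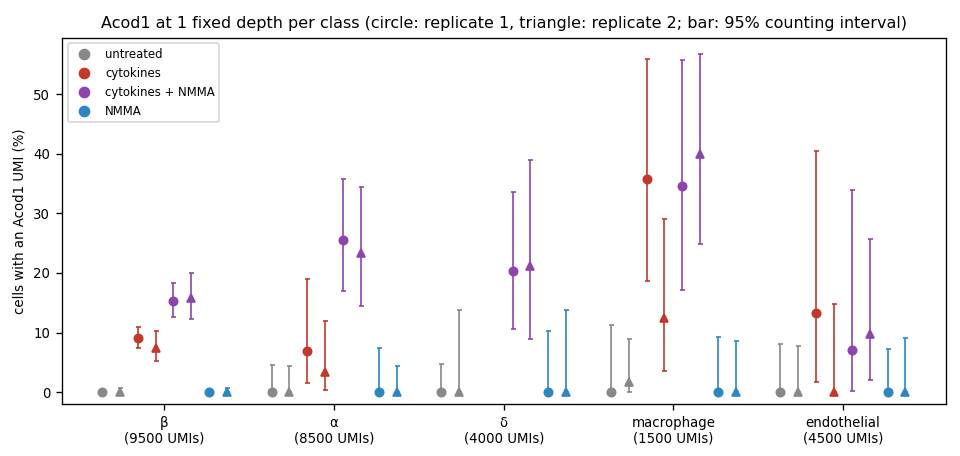
Share of cells with an Acod1 UMI (vertical axis, percent) by class and condition, each class thinned to its own depth; circles are replicate 1, triangles replicate 2 and bars exact 95% binomial intervals. Untreated and NMMA libraries sit at or near 0, and both α-cell libraries with cytokines and NMMA, at 25.6% and 23.4%, sit above both with cytokines alone.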

How the data were processed

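UMI counts per gene and barcode were deposited by the authors, made with Cell Ranger, for which the file headers give 3.0.0 for replicate 1 and 6.0.0 for replicate 2; the submitters' processing notes name mm10. The files list 31053 and 32285 genes, of which the 30406 shared identifiers were used, holding at least 99.67% of the UMIs. Symbols and positions follow the GRCm38 annotation.

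Barcodes with at least 200 genes, at most 5500 (replicate 1) or 6500 (replicate 2) genes and at most 10% mitochondrial UMIs were kept. They were clustered with scanpy 1.11.5 (2000 variable genes without the members and the other pathway genes, 30 principal components, 20 neighbours, Leiden resolution 1.0) and named from marker lists; 2448 unnamed, 274 insulin-led, 216 mesenchymal and 40 ductal barcodes were not used. At most 5 barcodes were shared by 2 libraries. Doublets were kept, and removing 200 was an alternative.

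UMIs were summed per class and library (11673280 to 35193074 in β-cells; sums of under 10 cells were left out) and tested with edgeR 4.0.16's quasi-likelihood test (filterByExpr, TMM scaling, all 4 conditions in 1 fit), with Benjamini-Hochberg adjustment over all genes tested and calls at 0.05. CPM are counts per 1000000 UMIs of the TMM-scaled sum, or of the plain sum for the δ-cell libraries with cytokines alone. The SE is the log2 change divided by the root of F. Classes were compared with β-cells in 2-class fits with the library as a block. A fold against 0 UMIs is a lower bound set against 3 UMIs over the group. Counting and binomial intervals are exact, at 95%. Before shares of cells were taken, cells were thinned to 9500, 8500, 4000, 1500 and 4500 UMIs in β-, α- and δ-cells, macrophages and endothelial cells. The fits were also run on simulated counts with the same dispersion for every gene and no difference between replicates. That run therefore does not cover the replicate differences of these data.

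Replicate numbers mark the islet pool of 10 mice that was divided over the conditions, so they pair libraries. Deviations of same-numbered β-cell sums correlated at 0.606 to 0.701 over the 6 pairs of conditions. The replicates also differ in Cell Ranger version and gene list, which these correlations cannot tell apart from the pools. Alternatives were a replicate block, DESeq2 1.42.0, RLE and total UMI scaling, no low-count filter, members kept among the variable genes, doublets removed, and each library left out. The members and gene lists were chosen with earlier results of these data known. Members given by library were Slc2a2, G6pc2, Gapdh, Acod1 and the 3 called members with the largest change per role in β-cells, with up to 5 called members in the other classes and 5 per direction of the other pathway list; those given beyond that were chosen after their values were seen. Promoter windows are from RefSeq (44 of 45 members matched).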

Additional observations from a re-analysis of the deposited data

Results flagged for a closer look

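In 14 cases the cytokine change of a member was called different between a class and β-cells, in the fit of both classes (log2 change in the class minus that in β-cells). In α-cells these were Suclg1 (-0.85) and Got2 (-0.81). In macrophages they were Acod1 (-3.71), Hk2 (-3.47), Slc2a1 (-1.95), Tpi1 (-0.83) and Gapdh (-0.77). In endothelial cells they were Pkm (1.19), Pgk1 (1.13), Acly (1.05), Pfkl (0.99), Eno1 (0.89), Slc2a1 (-1.22) and Idh2 (-2.78). In the same fits 4.51%, 5.84% and 6.32% of all genes were called in α-cells, macrophages and endothelial cells. The sizes for Acod1 and Hk2 rest on 1 UMI each in untreated β-cells.

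A signal of Acod1 was also seen in barcodes outside the classes compared. The mesenchymal barcodes with cytokines held 6 UMIs in each library, at 39.3 and 19.6 UMIs in 1000000 of all their UMIs, from 12 and 24 cells. The untreated ones held none, which allows up to 10.1 and 7.52 in the same unit. With cytokines and NMMA the values were 0 and 71.6. Ductal barcodes of replicate 1 were at 59.7 with cytokines and 24.3 with cytokines and NMMA, from 6 and 8 cells. Unnamed barcodes were at 7.88 and 7.07 with cytokines, and at 3.20 and 30.9 with cytokines and NMMA. Untreated ductal and unnamed barcodes held none. Insulin-led barcodes held none with cytokines either, from at most 1 cell a library.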

How the results depend on the processing

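No change reversed its direction among the 22 called members of β-cells with cytokines, for which 296 of 330 settings kept the call and 34 did not. Counts of called members, main value first, moved by over 1.5 times as follows. Under DESeq2 they went from 10 to 6 for α-cells with cytokines, and from 2 to 0, 5 to 0 and 7 to 3 for the difference from β-cells in α-cells, macrophages and endothelial cells. Under total UMI scaling they went from 2 to 7 for the α-cell difference, from 2 to 1 for macrophages with cytokines, and from 21 to 34 for the endothelial level. Without the low-count filter they went from 2 to 4 for macrophages and 6 to 11 for endothelial cells with cytokines, 5 to 3 for the macrophage difference, and 0 to 2 for β-cells with NMMA. RLE scaling and keeping the members among the variable genes each gave 3 for the macrophage difference. With the replicates paired as a block, counts became 16 for α-cells, 5 for macrophages and 12 for endothelial cells with cytokines, 25 for β-cells with NMMA added to cytokines, and 2 for β-cells with NMMA alone; of the calls of the main fits within a class, that of Acod1 in β-cells with NMMA added was the 1 lost. In the other comparisons, α-cells with NMMA added went from 8 to 18 under total UMI scaling and pairing and 14 without the low-count filter, and α-cells with cytokines and NMMA from 9 to 16 with pairing and 15 without the filter. Macrophages went from 4 to 8 with pairing and 2 under DESeq2 for cytokines with NMMA, and from 0 to 2 with pairing and 4 without the filter for NMMA added. Endothelial cells with cytokines and NMMA went from 3 to 9, 1 and 8 under pairing, DESeq2 and no filter, and δ-cells with NMMA from 0 to 1 with pairing. Fits without 1 library, or for the 2-class comparisons also without the untreated and cytokine libraries of a replicate together, gave 14 to 22 members for β-cells with cytokines, 4 to 11 with NMMA added, 6 to 19 for cytokines with NMMA, 0 for NMMA, 5 to 11 for α-cells, 1 to 3 for macrophages and 1 to 9 for endothelial cells with cytokines. For levels against β-cells they gave 19 to 23 in α-cells, 14 to 20 in δ-cells, 26 to 31 in macrophages and 16 to 21 in endothelial cells, and for the cytokine difference 0 to 4, 0 to 6 and 0 to 10 in α-cells, macrophages and endothelial cells. Without thinning, Acod1 shares were 16.8%, 13.4%, 26.6% and 25.8% in β-cells, and 61.8%, 46.2% and 76.1% in macrophages. The causes were not tested. The 2-class fits with each library left out were added after seeing the data.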
